A study of Mus musculus with 24 samples.

Results

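The genes described here are 33 genes of the tricarboxylic acid (TCA) cycle, of pyruvate entry into it and of the mitochondrial carriers that move its intermediates, measured in mouse liver on the Mouse Gene ST GeneChip array. They were taken as the probe sets whose platform annotation gives a single symbol equal to one of the 33, with 1 probe set per gene, the one with the highest mean over the 24 arrays, among 19938 genes named this way and 35556 probe sets in all. Each array held RNA of the liver of 1 male C57BL6 mouse, and the 4 groups of 6 mice were wild-type (WT) mice on chow, Ogg1-/- mice on chow, WT mice on a high-fat diet (HFD) and Ogg1-/- mice on the HFD. Ogg1-/- mice lack 8-oxoguanine DNA glycosylase, the enzyme that removes oxidized guanine from DNA. The diets, the HFD being one in which fat supplied most of the calories, were eaten freely for 10 weeks by individually housed mice. Their age at the start was 10 weeks in the deposited labels and 12 weeks in the study's methods. The Ogg1-/- allele is a whole-body deletion, and it had been backcrossed 21 times to C57BL/6J. In whole liver RNA, fewer cells of a type and less RNA per cell cannot be told apart.

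Pyruvate enters mitochondria and is either oxidized to acetyl-CoA by the pyruvate dehydrogenase complex or carboxylated to oxaloacetate by pyruvate carboxylase. The cycle then oxidizes acetyl-CoA stepwise and passes the electrons to the respiratory chain. In liver it also supplies carbon for gluconeogenesis and lipid synthesis, for which malate, citrate and 2-oxoglutarate leave the mitochondrion through carriers of the inner membrane. Pyruvate dehydrogenase kinases switch the complex off by phosphorylation and the phosphatases switch it on. PGC-1α, encoded by Ppargc1a, coactivates the estrogen-related receptors and other transcription factors at many mitochondrial genes.

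Before the members, some properties of the series touch each result. The Ogg1 probe set was lower in Ogg1-/- livers on both diets, at 5.93 ± 0.06 against 6.47 ± 0.11 log2 units on chow (SD, n = 6 each) and at 5.87 ± 0.13 against 6.46 ± 0.08 on the HFD, and no Ogg1-/- liver overlapped a WT liver on the same diet. All pairs of arrays correlated at 0.952 to 0.993. In the deposited sample descriptions, the 6 WT chow samples and 1 WT HFD sample carry a suffix that the others do not. On chow this suffix and the genotype cannot be told apart. Among WT livers the suffix and the diet part in that 1 HFD sample alone, so there they can hardly be told apart. The difference of the genotype effect between diets also draws on these groups. One liver, replicate 1 of the Ogg1-/- chow group, stood apart. It lay below all 5 other livers of its group in 20 of the 33 genes and above all 5 in 7, or 81.8% of the members, while over the 11146 named genes with a mean log2 signal of 6 or more it lay outside the other 5 in 78.4%. For the 33 genes, the main counts that involve this liver are therefore given with and without it. Results for the markers of cell types are given with it only.

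On the HFD, the Ogg1-/- livers carried lower signals for some of the 33 genes and higher signals for others. Of the 33 genes, 10 were lower and 5 higher than in WT livers at an adjusted p under 0.05 in a limma fit over all probe sets, and 18 did not pass. These 15 are 45.5% of the members, beside 19.8% of all probe sets and 39.2% of the 11146 brighter named genes, so that the share of members called was near that of other well-expressed genes. By direction, 10 of 33 members lower and 5 of 33 higher stand beside 9.55% of all probe sets and 19.4% of the brighter genes called lower, and 10.3% and 19.8% called higher. The median difference over the members was -0.10 log2 units, beside 0.05 over the brighter genes and 0.02 over all probe sets. Differences ran from -0.75 for Dld to 0.43 for Slc25a10. With a fold of at least 1.5 required as well, Dld, Fh1 and Mdh1 of the 33 remained as lower and no gene as higher. Beside these, 4.8% of all probe sets and 9.32% of the brighter genes were lower, and 1.09% and 1.25% higher. The share of members lower by that rule was near that of the brighter genes.

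**Figure D1:**
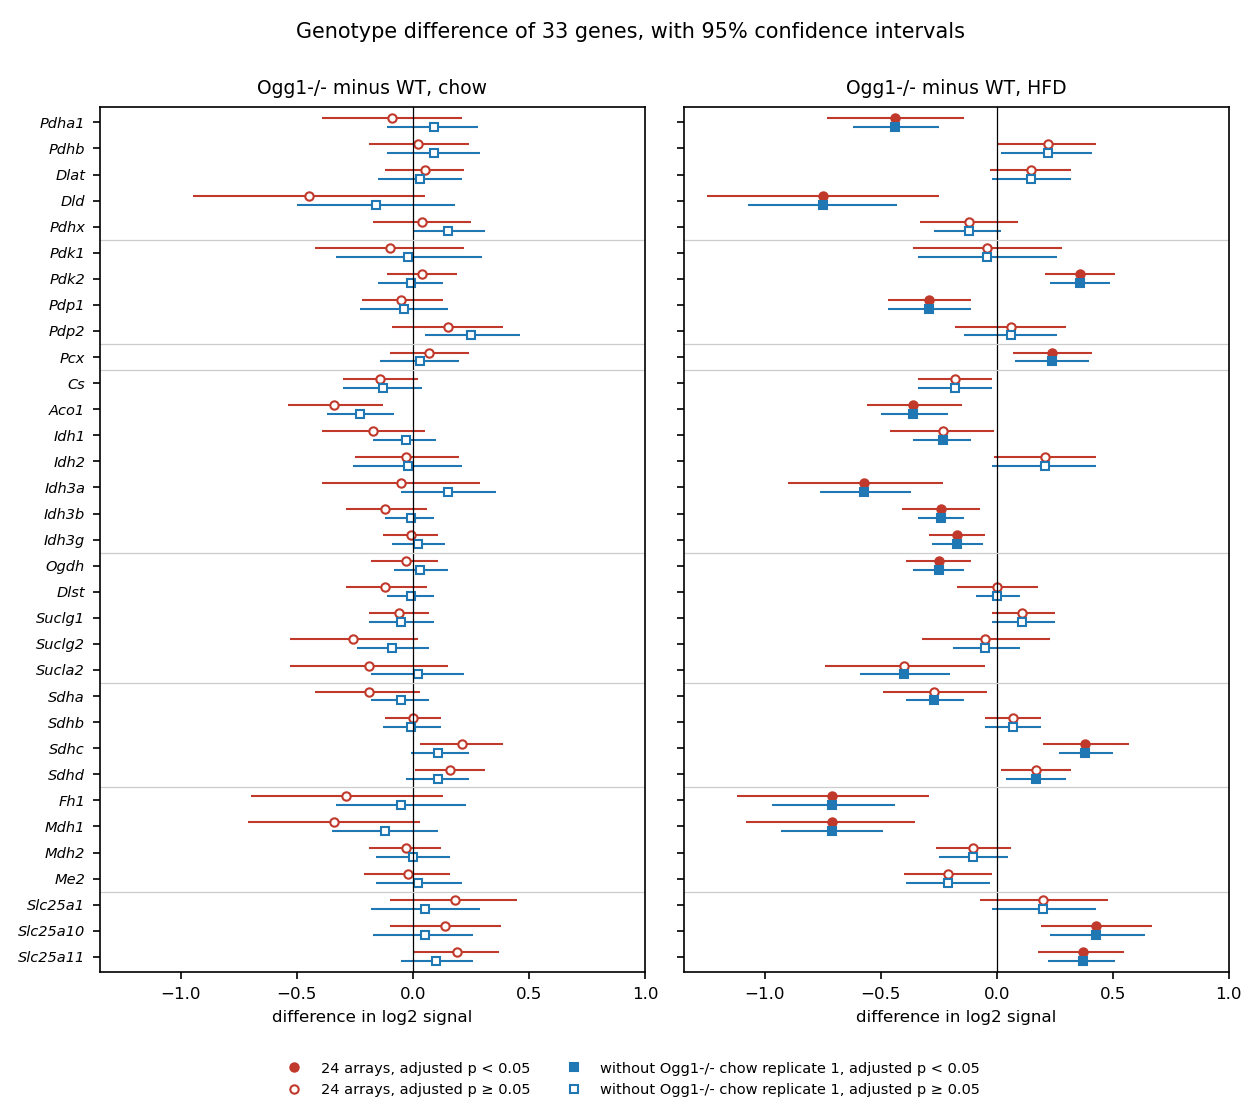
Difference in log2 signal, Ogg1-/- minus WT, of the 33 genes on chow (left) and on the HFD (right), in order of their roles, with 95% confidence intervals from the limma fit of all 24 arrays (red circles) and without Ogg1-/- chow replicate 1 (blue squares); filled symbols have an adjusted p under 0.05. No symbol is filled on chow, and on the HFD Dld, Fh1 and Mdh1 lie farthest to the left.

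The promoters of the genes with the largest falls and of the genes holding a motif for estrogen-related receptors are shown here, from RefSeq on build GRCm38.p6, each running from 250 bases before to 50 after the annotated start, 5′ to 3′ on the gene's strand. Of the 33 genes, 29 had a promoter entry, and those of Idh3a, Me2, Sdhc and Pdp1 were not analysed here. The motif TCAAGGTCA, searched on both strands, was found in the promoter of 1 of the 29 genes, Sdhd, and in 0.423% of all 32851 promoters or 0.466% of the 27025 genes they belong to. Its core AAGGTCA, which every such match also contains, was found in Sdhd and in 1 of 6 Ogdh promoters, and in 4.72% of all promoters or 5.38% of genes. The NRF1 palindrome, searched in its strict form, was in none of the 29 and in 0.971% of all promoters or 1.07% of genes. These matches are letters in a window and no measurement of binding. Dld, Fh1 and Mdh1 are shown because they were the members lower by at least 1.5-fold, Ogdh and Sdhd because they hold the motif, which stands in capitals and in both reads on the opposite strand. Dld lies at chr12:31351422-31351721, minus strand, Fh1 at chr1:175625586-175625885, minus strand, and Mdh1 at chr11:21571885-21572184, minus strand. The Ogdh promoter lies at chr11:6291920-6292219, plus strand, and Sdhd at chr9:50603800-50604099, minus strand.
Dld: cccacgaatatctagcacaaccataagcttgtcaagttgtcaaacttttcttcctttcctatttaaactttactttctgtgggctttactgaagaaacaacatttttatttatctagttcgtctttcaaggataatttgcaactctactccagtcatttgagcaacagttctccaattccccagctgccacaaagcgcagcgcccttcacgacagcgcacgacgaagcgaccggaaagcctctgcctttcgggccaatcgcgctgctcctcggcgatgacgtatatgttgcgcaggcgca
Fh1: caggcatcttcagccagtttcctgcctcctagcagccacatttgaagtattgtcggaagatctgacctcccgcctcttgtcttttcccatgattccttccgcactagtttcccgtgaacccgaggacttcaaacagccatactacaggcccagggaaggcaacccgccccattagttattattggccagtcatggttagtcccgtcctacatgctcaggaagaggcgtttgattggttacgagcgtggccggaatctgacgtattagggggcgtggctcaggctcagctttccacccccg
Mdh1: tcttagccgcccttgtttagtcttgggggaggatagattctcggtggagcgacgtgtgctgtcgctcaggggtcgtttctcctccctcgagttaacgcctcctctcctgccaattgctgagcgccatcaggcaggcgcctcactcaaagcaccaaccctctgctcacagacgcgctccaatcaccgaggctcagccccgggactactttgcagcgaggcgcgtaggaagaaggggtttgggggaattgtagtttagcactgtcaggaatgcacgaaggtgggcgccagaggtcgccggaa
Ogdh: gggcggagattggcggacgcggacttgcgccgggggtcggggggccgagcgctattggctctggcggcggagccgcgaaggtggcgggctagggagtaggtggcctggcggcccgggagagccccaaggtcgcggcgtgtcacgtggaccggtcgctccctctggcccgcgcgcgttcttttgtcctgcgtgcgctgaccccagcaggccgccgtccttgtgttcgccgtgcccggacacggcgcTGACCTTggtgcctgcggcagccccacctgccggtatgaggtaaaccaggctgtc
Sdhd: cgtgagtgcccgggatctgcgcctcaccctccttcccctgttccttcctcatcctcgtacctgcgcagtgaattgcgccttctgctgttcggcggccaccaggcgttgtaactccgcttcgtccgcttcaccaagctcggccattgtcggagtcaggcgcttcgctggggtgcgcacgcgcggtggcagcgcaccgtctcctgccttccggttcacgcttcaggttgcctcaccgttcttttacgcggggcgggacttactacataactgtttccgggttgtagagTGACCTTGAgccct
No capitals appear in the first 3 sequences. G and C made up 47% of the bases for Dld, 54.3% for Fh1 and 59.3% for Mdh1, against 72.3% for Ogdh and 62% for Sdhd.

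Within the pyruvate dehydrogenase complex, 2 of 5 genes were lower and none higher on the HFD. Dld encodes dihydrolipoamide dehydrogenase, the flavoprotein shared by the pyruvate and 2-oxoglutarate dehydrogenase complexes. Its log2 signal ran from 7.90 (median 8.60) to 8.86 in Ogg1-/- livers and from 8.89 (median 9.29) to 9.47 in WT livers, and the groups did not overlap, although the highest Ogg1-/- liver came just under the lowest WT liver. The difference was -0.75 ± 0.24 (SE), a 1.68-fold lower signal, with an adjusted p of 0.0321 that rose to as much as 0.0907 when 1 liver was left out. Pdha1, the catalytic alpha subunit whose phosphorylation turns the complex off, ran from 9.51 (median 9.84) to 9.91 against 9.96 (median 10.27) to 10.42. Its difference was -0.44 ± 0.14 with an adjusted p of 0.0362, and of up to 0.0933 with 1 liver left out. Here, too, all 6 Ogg1-/- livers lay below all 6 WT livers. Pdhb, the beta subunit that pairs with Pdha1, was at 9.11 ± 0.09 against 8.90 ± 0.21 (difference 0.22, adjusted p = 0.153). Dlat, the acetyltransferase core, and Pdhx, which anchors Dld to that core, had differences of 0.15 and -0.12 that did not pass.

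Of the 4 kinase and phosphatase genes of the complex, 1 was higher and 1 lower. Pdk2, a pyruvate dehydrogenase kinase expressed in liver, ran from 11.03 (median 11.11) to 11.18 in Ogg1-/- livers on the HFD and from 10.69 (median 10.72) to 10.96 in WT livers. The difference of 0.36 ± 0.07 had the lowest adjusted p of the 33 genes, 0.00269, and the groups did not overlap. In the WT group, replicate 3 at 10.96 was well above the other 5, which ended at 10.73. Pdp1, a catalytic phosphatase subunit, was at 6.37 ± 0.20 against 6.66 ± 0.12 (difference -0.29 ± 0.09, adjusted p = 0.0207), and here the groups overlapped and the call was lost without WT HFD replicate 4 or Ogg1-/- HFD replicate 2 (adjusted p up to 0.0602). Pdk1 and Pdp2 had differences of -0.04 and 0.06 and did not pass.

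Pcx, pyruvate carboxylase, was higher in Ogg1-/- livers on the HFD. Its signal ran from 11.67 (median 11.85) to 11.99 against 11.27 (median 11.63) to 11.83, a difference of 0.24 ± 0.08 with an adjusted p of 0.0431, and the groups overlapped. The call was lost in 7 of the 13 fits with 1 liver left out, with an adjusted p of up to 0.126, and also with a replicate block (adjusted p = 0.0698).

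From citrate to 2-oxoglutarate, 4 of 7 genes were lower and none higher. Idh3a, Idh3b and Idh3g encode the alpha, beta and gamma subunits of the NAD-dependent isocitrate dehydrogenase of the cycle, and all 3 were lower. Idh3a ran from 8.36 (median 8.56) to 8.66 in Ogg1-/- livers and from 8.77 (median 9.05) to 9.33 in WT livers, without overlap, and differed by -0.57 ± 0.16 (adjusted p = 0.0177). Idh3b differed by -0.24 ± 0.08 (adjusted p = 0.0458), also without overlap, and Idh3g by -0.17 ± 0.06 (adjusted p = 0.044) with overlap. Both of these calls were close to the threshold and were lost in 10 and 9 of the 13 fits with 1 liver left out. Aco1, the cytosolic aconitase that also serves as an iron-responsive RNA-binding protein, ran from 10.89 (median 11.03) to 11.27 against 11.30 (median 11.46) to 11.49. It differed by -0.36 ± 0.10 (adjusted p = 0.0151). Cs, citrate synthase, did not pass at -0.18 (adjusted p = 0.108). The NADP-dependent enzymes had values on either side of 0, at -0.23 for the cytosolic Idh1 (adjusted p = 0.131) and 0.21 for the mitochondrial Idh2 (adjusted p = 0.188).

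From 2-oxoglutarate to succinate, 1 of 5 genes was lower. Ogdh, the substrate-binding dehydrogenase of the 2-oxoglutarate complex, ran from 10.38 (median 10.44) to 10.51 against 10.64 (median 10.70) to 10.73 and differed by -0.25 ± 0.07 (adjusted p = 0.0142), with no overlap. Dlst, the succinyltransferase core of that complex, was at 10.44 in both genotypes (difference 0.00, 95% confidence interval -0.17 to 0.18). Sucla2 is the subunit that makes succinyl-CoA ligase ADP-forming, and Suclg2 the one that makes it GDP-forming. Sucla2 ran from 9.75 (median 10.13) to 10.32 against 10.37 (median 10.47) to 10.58, so the groups did not overlap, yet the difference of -0.40 ± 0.17 did not pass (adjusted p = 0.0962). Suclg2 differed by -0.05 and the alpha subunit Suclg1, common to both forms, by 0.11, neither passing. A second probe set of Suclg2 gave the same difference of -0.05.

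Succinate dehydrogenase, complex II of the respiratory chain, had 1 of 4 subunit genes higher and none lower. Sdhc, a membrane anchor, ran from 11.53 (median 11.59) to 11.75 against 11.13 (median 11.26) to 11.33, and its 6 Ogg1-/- livers lay above all 6 WT livers. The difference was 0.38 ± 0.09 (adjusted p = 0.00533). The other anchor, Sdhd, was at 11.81 ± 0.08 against 11.64 ± 0.11 (difference 0.17, adjusted p = 0.1). Sdha, the flavoprotein that oxidizes succinate, was at 11.73 ± 0.13 against 12 ± 0.07 (difference -0.27 ± 0.11, adjusted p = 0.0883). Sdhb, the iron-sulfur subunit, differed by 0.07 and did not pass.

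From fumarate onwards, 2 of 4 genes were lower and none higher. Fh1, fumarate hydratase, ran from 10.25 (median 10.47) to 10.97 in Ogg1-/- livers and from 10.93 (median 11.21) to 11.50 in WT livers. It differed by -0.71 ± 0.20, 1.63-fold, with an adjusted p of 0.0159, and a single Ogg1-/- liver at 10.97 reached into the WT range. Mdh1, the cytosolic malate dehydrogenase of the malate-aspartate shuttle, ran from 11.10 (median 11.60) to 11.87 against 12.11 (median 12.30) to 12.37. The difference was -0.71 ± 0.18, 1.64-fold, with an adjusted p of 0.00818 and no overlap. Its mitochondrial counterpart Mdh2 differed by -0.10 (95% confidence interval -0.26 to 0.06), and Me2, a mitochondrial malic enzyme whose signal ran from 5.56 to 6.23 over all livers, differed by -0.21 (adjusted p = 0.109).

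**Figure D2:**
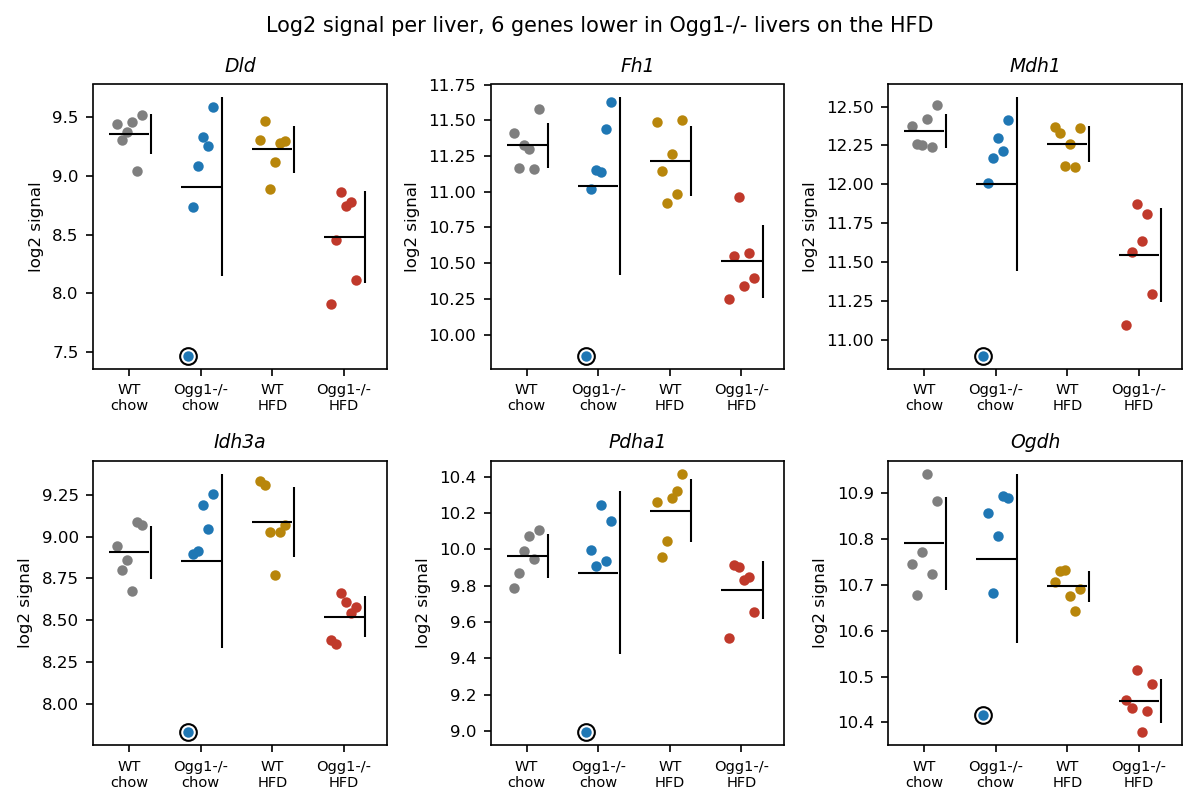
Log2 signal (vertical axes, scaled per gene) of 6 genes in each of the 24 livers, by group; horizontal lines are group means, vertical lines ± 1 SD over 6 livers, and the ringed point is Ogg1-/- chow replicate 1. In 5 of the 6 panels every Ogg1-/- HFD liver lies below every WT HFD liver, the exception being Fh1, and the ringed liver is the lowest Ogg1-/- chow liver in all 6.

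Of the 3 mitochondrial carriers measured, 2 were higher on the HFD and none lower. Slc25a10, the dicarboxylate carrier that exports malate and succinate in exchange for phosphate, ran from 11.73 (median 12) to 12.17 against 11.20 (median 11.56) to 11.86. It differed by 0.43 ± 0.12 (adjusted p = 0.0114), and the groups overlapped. Slc25a11, the carrier that exchanges malate for 2-oxoglutarate, ran from 11.04 (median 11.19) to 11.34 against 10.71 (median 10.87) to 10.91, without overlap, and differed by 0.37 ± 0.09 (adjusted p = 0.00739). The citrate carrier Slc25a1 was at 12.06 ± 0.10 against 11.85 ± 0.34 (difference 0.20, adjusted p = 0.327). In its WT group replicate 2, at 11.18, was far below the other 5, which began at 11.85.

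**Figure D3:**
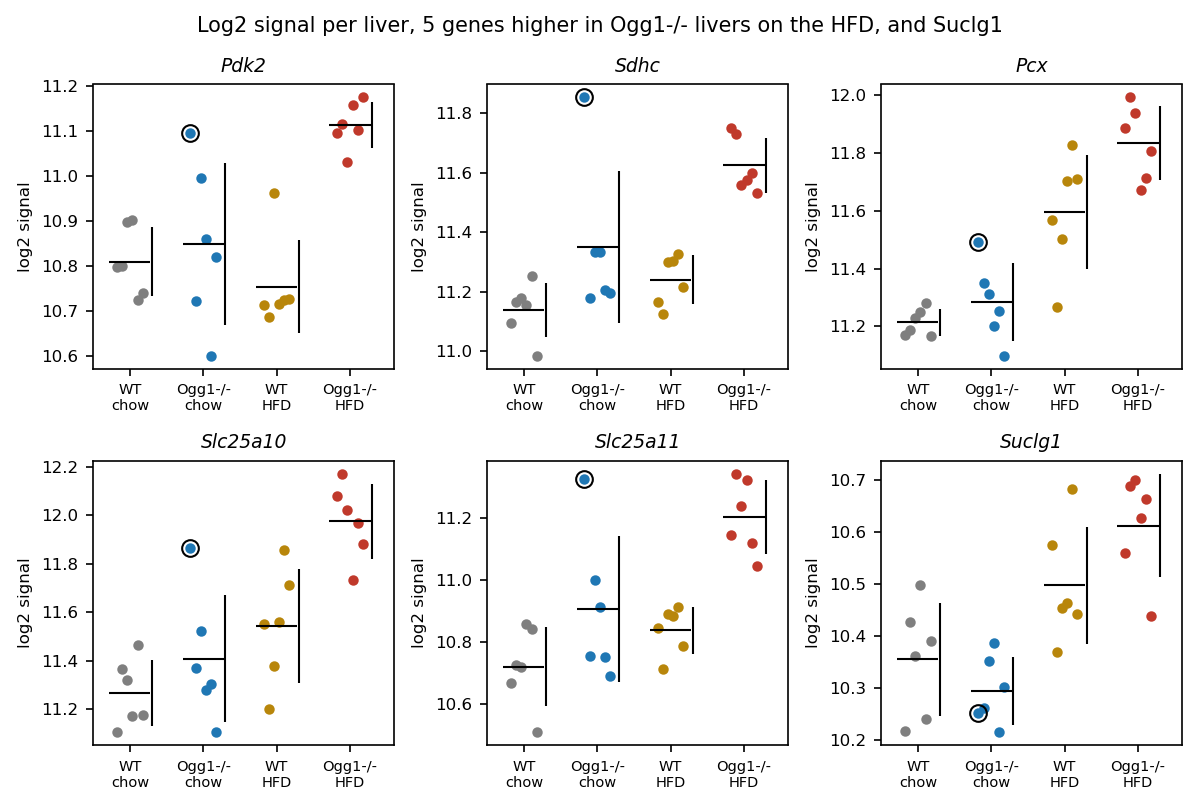
Log2 signal (vertical axes, scaled per gene) of 6 genes in each of the 24 livers, by group, with group means (horizontal lines) and ± 1 SD over 6 livers (vertical lines); the ringed point is Ogg1-/- chow replicate 1. Ogg1-/- HFD livers lie above all WT HFD livers for Pdk2, Sdhc and Slc25a11 and overlap them for Pcx, Slc25a10 and Suclg1, of which Suclg1 did not pass on the HFD.

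Over the 33 genes, the 6 Ogg1-/- and 6 WT livers on the HFD did not overlap in 8 genes that were lower and 3 that were higher, beside 12.1% of all probe sets and 26.3% of the brighter genes in either direction. Of the 8 genes that the study's own TCA cycle table lists (Dld, Mdh1, Fh1, Idh3a, Pdha1, Sucla2, Aco1 and Sdha), 6 were lower at an adjusted p under 0.05 and all 8 had negative differences. The study chose that list on these same arrays, so the count over it is not independent of that choice.

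On chow, none of the 33 genes passed between genotypes in the limma fit, beside 0.478% of all probe sets and 1.05% of the brighter genes, and 4 had an unadjusted p under 0.05. The methods' t-test called none either. The smallest adjusted p was 0.126, for Aco1, which was at 11.20 ± 0.29 in Ogg1-/- livers and 11.54 ± 0.10 in WT livers (difference -0.34 ± 0.10). With 1 liver left out, its adjusted p in the limma fit ran from 0.0406 to 0.29. It passed only without Ogg1-/- chow replicate 6 (adjusted p = 0.0406). Dld was at 8.91 ± 0.76 against 9.36 ± 0.17 (difference -0.45 ± 0.24, adjusted p = 0.334), Fh1 at 11.04 ± 0.62 against 11.33 ± 0.16 (adjusted p = 0.463) and Mdh1 at 12 ± 0.56 against 12.34 ± 0.11 (adjusted p = 0.317). The spread of these genes in the Ogg1-/- chow group was several times that in WT livers and rested on replicate 1. Of the other genes in the study's table, Sdha and Sucla2 both had differences of -0.19 (adjusted p = 0.354 and 0.58), Pdha1 of -0.09 and Idh3a of -0.05 (adjusted p = 0.793 and 0.903). Without replicate 1 again none passed, beside 0.326% of all probe sets and 0.7% of the brighter genes, 3 genes had an unadjusted p under 0.05, and the differences ran from -0.23 to 0.25. The differences of Aco1, Dld, Fh1 and Mdh1 were then -0.23, -0.16, -0.05 and -0.12, and those of Pdha1, Idh3a and Sucla2 turned to 0.09, 0.15 and 0.02.

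Replicate 1 of the Ogg1-/- chow group is best seen gene by gene. Its Dld signal was 7.47 where the other 5 livers ran from 8.74 to 9.59, and its Fh1 signal was 9.85 where they ran from 11.02 to 11.63. Mdh1 stood at 10.90 against 12.01 to 12.42. These are the genes with the largest falls on the HFD, and this chow-fed liver lay below every HFD-fed Ogg1-/- liver in all 3. Sucla2 stood at 9.16 against 10.09 to 10.61, Idh3a at 7.83 against 8.90 to 9.25 and Suclg2 at 10.57 against 11.39 to 11.70. On the other side, Sdhc stood at 11.85 against 11.18 to 11.33, Slc25a1 at 12.62 against 11.69 to 12.07 and Slc25a11 at 11.33 against 10.69 to 11. The deviation of this liver from the mean of its 5 group mates had the sign of the genotype difference on the HFD in 28 of the 33 genes, and in all 15 that passed there. Over the 11146 brighter genes the signs were the same in 84%, and in 95.1% of the 4369 that passed on the HFD. Across the 33 genes the 2 quantities correlated at 0.87 and across the brighter genes at 0.81. No liver enters both quantities, but all were measured on arrays normalized together, genes are not independent replicates, and no test was made. Which property of this liver goes with these values was not tested.

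**Figure D4:**
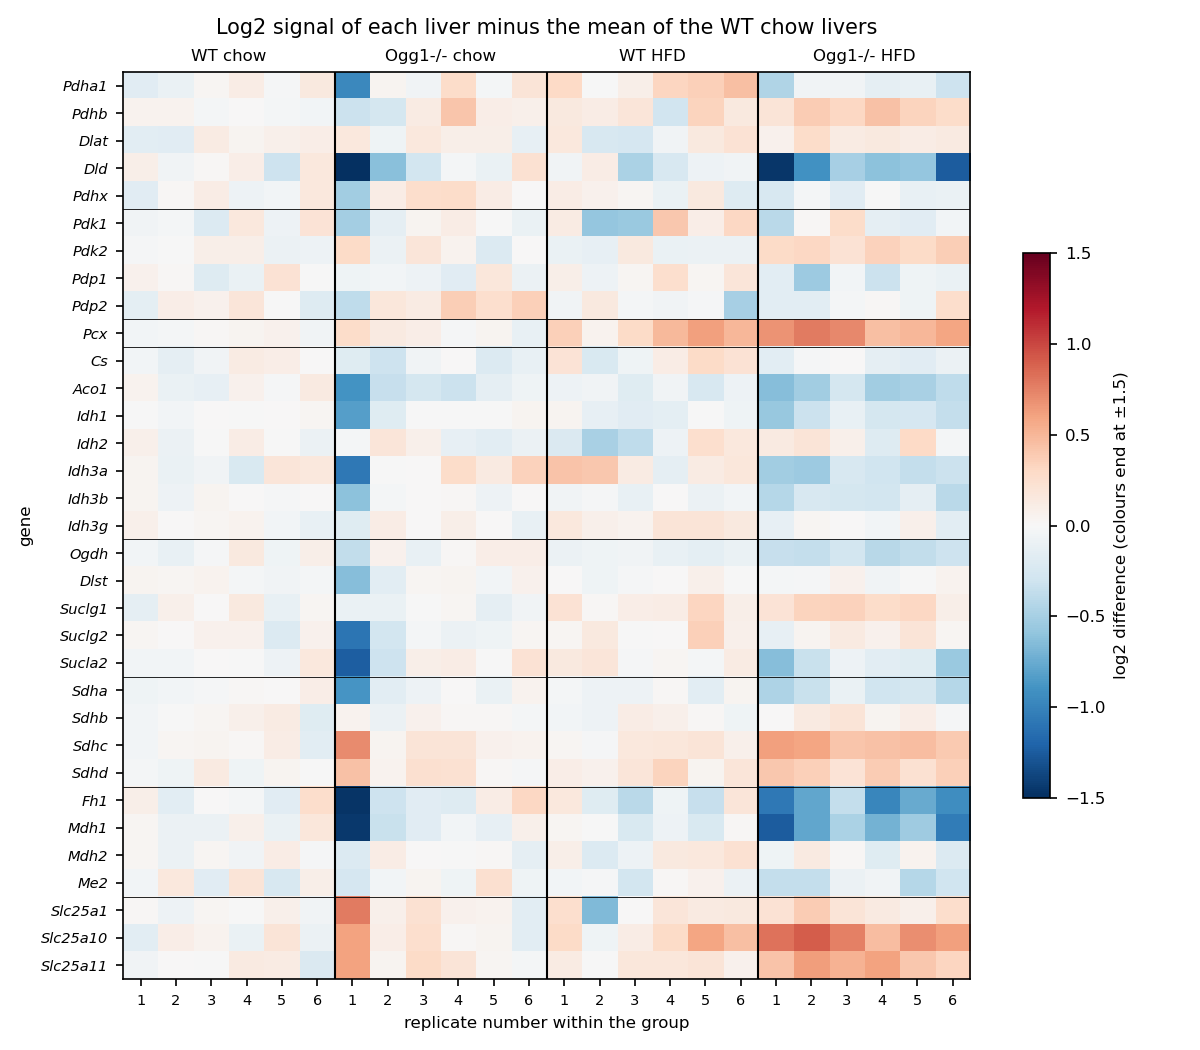
Log2 signal of each of the 33 genes (rows, in order of their roles) in each of the 24 livers (columns, by group and replicate number) minus the mean of the 6 WT chow livers; blue is lower and red higher, and colours end at ±1.5 while the values run from -1.89 to 0.90. Ogg1-/- chow replicate 1 is darkest blue in Dld, Fh1 and Mdh1, rows that are paler blue in the Ogg1-/- HFD livers.

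A score was taken for each liver on the leading axis of variation within the chow groups, its sign set so that Ogg1-/- chow replicate 1 scored positive. The score was 80.9 for Ogg1-/- chow replicate 1 and 18.5 to 54.8 for the Ogg1-/- HFD livers, against -42.1 to 7.74 for the other Ogg1-/- chow livers, -46.1 to -6.51 for WT chow livers and -20.7 to 10.4 for WT HFD livers. The axis held 40.2% of the variation within the chow groups, and 59.2% of the squared deviations along it came from Ogg1-/- chow replicate 1. The high score of that liver was therefore built into the axis. With the score as a covariate, none of the 33 genes passed between genotypes on the HFD in the limma fit, 9 had an unadjusted p under 0.05, and 2.71% of all probe sets and 4.9% of the brighter genes passed. Dld was then at -0.08, Fh1 at -0.20, Mdh1 at -0.24 and Idh3a at -0.18, while Pdk2 was at 0.25 (adjusted p = 0.051) and Pdp1 unchanged at -0.29 (adjusted p = 0.12). On the HFD the score separates the genotypes without overlap, so that what goes with the score and what goes with the genotype cannot be told apart there.

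In WT livers the HFD changed 1 of the 33 genes, beside 0.925% of all probe sets and 1.79% of the brighter genes. Pcx rose from 11.21 ± 0.05 on chow to 11.60 ± 0.20 on the HFD, a difference of 0.38 ± 0.08 with an adjusted p of 0.0229, and the lowest HFD liver, at 11.27, lay just under the highest chow liver, at 11.28. This call was lost when any of 5 WT livers was left out (replicates 1 and 6 on chow and 4, 5 and 6 on the HFD), with an adjusted p of at most 0.07. The other 32 genes had differences between -0.13 and 0.28, with 4 of the 33 at an unadjusted p under 0.05. Dld, Fh1 and Mdh1 differed by -0.13, -0.11 and -0.08. Without Ogg1-/- chow replicate 1 in the shared estimate of spread, Pcx again was the single gene called, beside 1.9% of all probe sets and 3.66% of the brighter genes.

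In Ogg1-/- livers the HFD raised 5 genes and lowered 1 of the 33, 18.2% of the members beside 9.53% of all probe sets and 18.9% of the brighter genes. By direction, 4.58% of all probe sets and 9.17% of the brighter genes were higher, and 4.94% and 9.75% lower. Pcx rose by 0.55 (from 11.28 ± 0.13 to 11.84 ± 0.13, adjusted p = 0.000339) and Slc25a10 by 0.57 (from 11.41 ± 0.26 to 11.98 ± 0.15, adjusted p = 0.00462). Suclg1 rose by 0.32 (from 10.30 ± 0.07 to 10.61 ± 0.10, adjusted p = 0.00466), Slc25a11 by 0.30 (adjusted p = 0.0378) and Pdk2 by 0.26 (adjusted p = 0.0229). With 1 liver left out, Slc25a11 lost its call in 8 of 12 fits and Pdk2 in 4. For Pcx and Suclg1 every HFD liver lay above every chow liver, beside 2.4% of all probe sets and 4.4% of the brighter genes without overlap in either direction. Ogdh fell by 0.31 on the log2 scale (from 10.76 ± 0.18 to 10.45 ± 0.05, adjusted p = 0.00842). This comparison shares the Ogg1-/- HFD livers with the genotype comparison on that diet.

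Leaving out replicate 1 of the chow group changed the count of this comparison more than that of any other between groups. The HFD then raised 7 genes and lowered 14, which is 63.6% of the members, beside 25.4% of all probe sets and 49.3% of the brighter genes. The largest falls were in Fh1 (-0.76, adjusted p = 0.000259), Dld (-0.72, adjusted p = 0.00215), Mdh1 (-0.68, adjusted p = 0.000151), Idh3a (-0.54, adjusted p = 0.00044), Ogdh (-0.38, adjusted p = 5.01e-05) and Sucla2 (-0.34, adjusted p = 0.0114). With that liver included, the first 4 of these had differences of -0.53, -0.43, -0.46 and -0.33 and did not pass. The largest rises were in Slc25a10 (0.66, adjusted p = 0.000107), Pcx (0.59, adjusted p = 3.84e-05), Sdhc (0.38, adjusted p = 0.000126), Slc25a11 (0.38, adjusted p = 0.000616), Pdk2 (0.31, adjusted p = 0.00123) and Suclg1 (0.31, adjusted p = 0.00154). The members' median was -0.06, beside 0.06 over the brighter genes. The genotype comparison on the HFD, in which this liver bears on the estimate of spread alone, then held 6 genes higher and 13 lower, or 57.6% of the members beside 25.9% of all probe sets and 50.3% of the brighter genes. The 4 added genes were Idh1 (adjusted p = 0.00702), Sucla2 (0.00282) and Sdha (0.00173) as lower and Sdhd (0.0449) as higher.

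**Figure D5:**
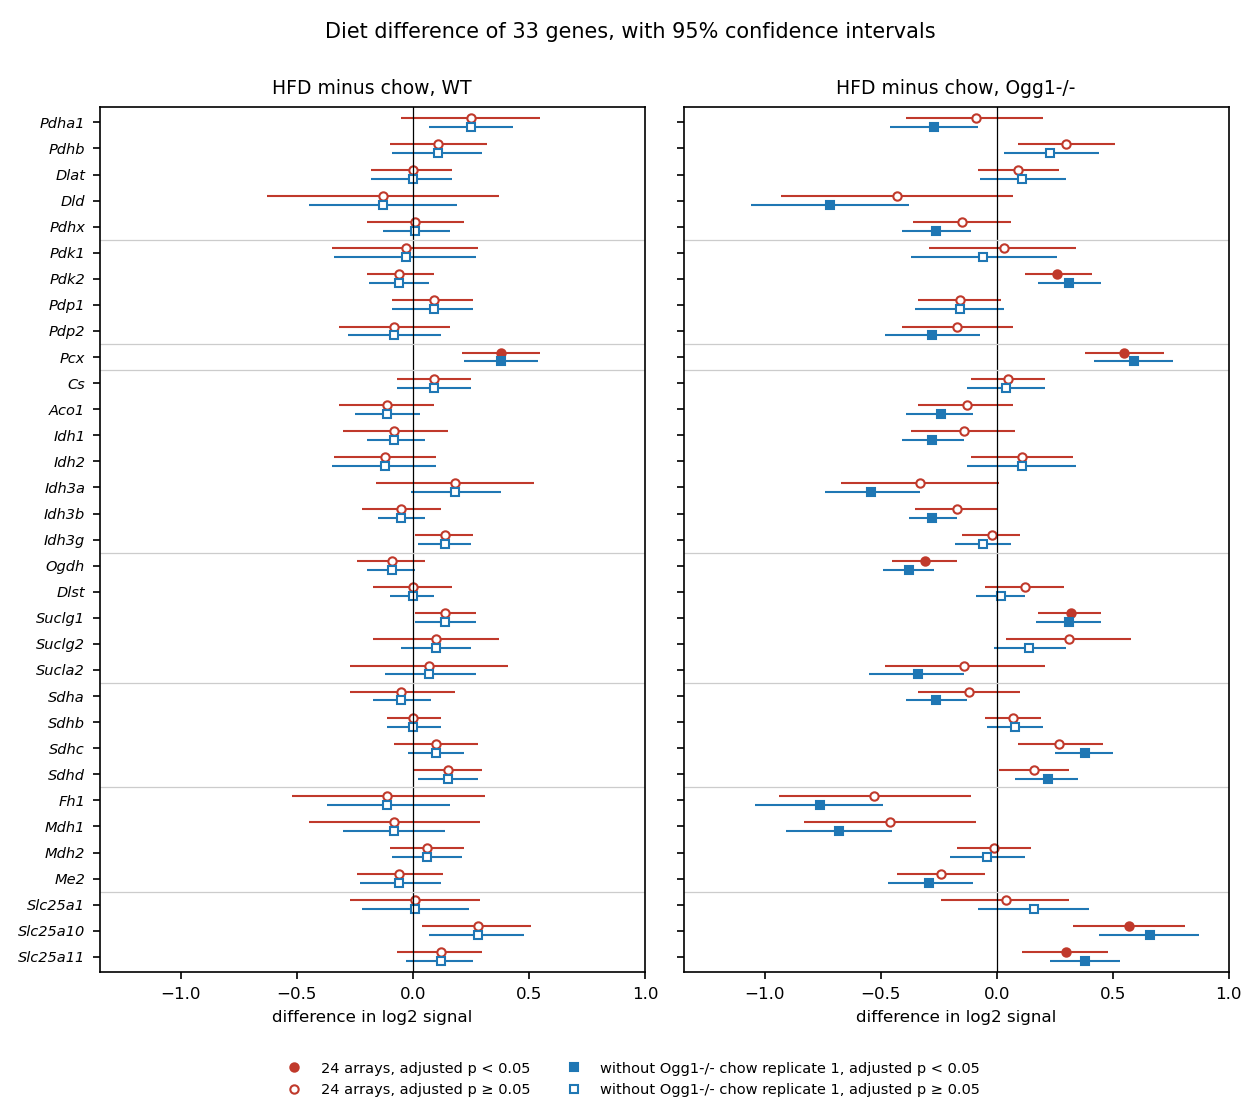
Difference in log2 signal, HFD minus chow, of the 33 genes in WT (left) and Ogg1-/- livers (right), with 95% confidence intervals from the limma fit of all 24 arrays (red circles) and without Ogg1-/- chow replicate 1 (blue squares); filled symbols have an adjusted p under 0.05. In WT livers Pcx alone is filled, and in Ogg1-/- livers 6 circles and 21 squares are filled.

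Whether the genotype effect differed between the diets was tested as the difference of the 2 genotype differences. None of the 33 genes passed with all 24 arrays, the smallest adjusted p was 0.52, 3 had an unadjusted p under 0.05, and 0.00281% of all probe sets passed. Pdk2 had a difference of 0.32 ± 0.10, Idh3a of -0.51 ± 0.23 and Dld of -0.30 ± 0.34. Without Ogg1-/- chow replicate 1, 3 genes passed, beside 1.52% of all probe sets and 3.4% of the brighter genes. Idh3a was then at -0.72 ± 0.14 (adjusted p = 0.0229), Pdha1 at -0.52 ± 0.13 (adjusted p = 0.0419) and Pdk2 at 0.37 ± 0.09 (adjusted p = 0.0431). The other 30 genes did not pass, Dld, Fh1 and Mdh1 among them, so that for these a call on the HFD and none on chow is not shown to be a difference between the diets.

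Neighbouring genes of the pathway were described from a fixed list of 36, of which 33 were measured. On the HFD 7 were lower and 5 higher in Ogg1-/- livers and 21 did not pass, with a median of 0.03, beside 19.8% of all probe sets and 39.2% of the brighter genes passing. Pdk4, the fasting-induced pyruvate dehydrogenase kinase, was at 7.20 ± 0.40 against 8.14 ± 1.01 (difference -0.94 ± 0.33, adjusted p = 0.0493), opposite in direction to Pdk2. The Pdk4 call was close to the threshold, and the SD of the WT livers was larger than the difference. Ppargc1a was at 6.59 ± 0.13 against 7.38 ± 0.33 (difference -0.79 ± 0.18, adjusted p = 0.0056), without overlap. Pdpr, the regulatory subunit of pyruvate dehydrogenase phosphatase, differed by -0.51 (adjusted p = 0.00338), as did Lias, which makes the lipoyl group carried by Dlat and Dlst (adjusted p = 0.0235). Sdhaf2, which helps attach flavin to Sdha, differed by -0.50 (adjusted p = 0.0193), and the glutamate carrier Slc25a22 by 0.44 (adjusted p = 0.0402). The remaining genes that passed were Slc25a12 and Ppara as lower and Mpc1, Lipt2, Slc25a3 and Sdhaf1 as higher. On chow none passed between genotypes in the limma fit, with 9 at an unadjusted p under 0.05. With diet, Mpc1, a subunit of the mitochondrial pyruvate carrier, rose by 0.39 in WT livers (adjusted p = 0.00671) and by 0.59 in Ogg1-/- livers (adjusted p = 4.37e-05), with no overlap in either. In Ogg1-/- livers Got2 also rose by 0.21, and Pdpr and Ppargc1a fell by 0.47 and 0.64 on the log2 scale. Without Ogg1-/- chow replicate 1 the genotype counts on the HFD were 9 higher and 7 lower, beside 25.9% of all probe sets and 50.3% of the brighter genes passing. The diet counts in Ogg1-/- livers were then 7 higher and 6 lower, in place of 2 and 2. Beside these, 25.4% of all probe sets and 49.3% of the brighter genes passed between diets in Ogg1-/- livers without that replicate. The difference between diets then passed for Slc25a12 (-0.34) and Ppara (-0.66), beside 1.52% of all probe sets and 3.4% of the brighter genes.

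Markers of the cell types in liver moved with genotype on the HFD as well. Of 35 markers measured, 9 were lower and none higher in Ogg1-/- livers, beside 9.55% of all probe sets and 19.4% of the brighter genes lower and 10.3% and 19.8% higher. All 5 endothelial markers were lower, and their mean log2 signal ran from 7.97 to 8.25 in Ogg1-/- livers against 8.42 to 8.84 in WT livers and was 7.98 in Ogg1-/- chow replicate 1. In the Ogg1-/- HFD livers the 5 endothelial markers had means from 6.55 for Pecam1 and 6.95 for Tek to 10.77 for Clec4g. Over all probe sets the median of the means was 5.93 and the 75th percentile 7.66. Clec4f and Vsig4 of the 5 Kupffer cell markers and Lrat and Dcn of the 5 stellate markers were lower. In the same lists Cd68, Marco, Des and Col1a1 had differences above 0 (0.31, 0.22, 0.17 and 0.11) that did not pass, and none of the 4 hepatocyte markers passed. The hepatocyte mean ran from 13.72 to 13.86 in Ogg1-/- and from 13.79 to 13.95 in WT livers on the HFD. Of the lymphocyte, bile duct, adipocyte, muscle and pancreas markers none passed. Their means in Ogg1-/- HFD livers ran from 4.44 for Adipoq and 4.48 for Lep to 8.04 for Fabp4. Several lay under that median over all probe sets, where array values compress differences. Between diets in Ogg1-/- livers, 4 of the 5 endothelial markers were lower on the HFD (list median -0.47), as was Dcn (-0.57). Cd68 (0.48), the adipocyte marker Fabp4 (0.68) and the muscle marker Acta1 (0.30) were higher. These were 5 lower and 3 higher of 35 markers. Beside them, 4.94% of all probe sets and 9.75% of the brighter genes were lower, and 4.58% and 9.17% higher. In WT livers Cd68, Fabp4 and Acta1 had diet differences of 0.41, 0.62 and 0.27 that did not pass (adjusted p = 0.125, 0.0559 and 0.189). There the hepatocyte marker Cps1 alone passed, lower on the HFD (-0.49, adjusted p = 0.048), beside 0.925% of all probe sets and 1.79% of the brighter genes passing. The difference of the genotype effect between diets passed for none of the 35 markers. The endothelial mean of Ogg1-/- livers ran from 7.98 to 8.84 on chow, the lowest being replicate 1, against 7.97 to 8.25 on the HFD. The part of these shifts in the differences of the 33 genes was not tested.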

How the data were processed

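The data analysed were the deposited values of 24 arrays, 1 liver each, 6 per group, grouped by the deposited labels. Per the labels, 125 ng of total RNA was labelled for the array, and the authors deposited log2 values per probe set made by RMA, which corrects background, normalizes between arrays and summarises probes. The study's methods name GC-RMA in the GeneSifter software for its own analysis, and no source used here states whether the deposited values came from that step or gives an RMA version. Such values compress differences near background, and precision here depends on how many arrays each group has and on the spread between livers. The values ran from 1.81 to 14.8, no 2 arrays were identical, and 0 deposited columns were left unused. Of 35556 probe sets, 21789 had 1 symbol, 1621 several and 12146 none; 21698 symbols were matched by Entrez identifier to RefSeq names. A 4-group model was fitted with limma 3.58.1 in R 4.3.3 to all probe sets, with Benjamini-Hochberg adjustment over all 35556; a gene passed at an adjusted p under 0.05. Intervals are 95%. The fit was tested on simulated data. Figures were drawn with matplotlib 3.10.9. The members and lists were chosen with earlier results of these data known. All 33 members are accounted for; full statistics went to the largest differences among those passing and to the 8 genes of the study's table. Nothing in the labels says that same-numbered mice were paired, and their deviations from the group means correlated at -0.27 to 0.43 (median -0.03, 36 pairs), so the fit has no block. Alternatives were a replicate block, median centring, quantile normalization, leaving out dim probe sets (mean log2 under 6), array weights, a trended robust prior, only the groups compared, the methods' t-test, the mean over a gene's probe sets, the axis score as a covariate and leaving out each liver. Chosen after seeing the data were the omission of both Ogg1-/- replicates numbered 1 and the background over genes with a mean of at least 6.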

Additional observations from a re-analysis of the deposited data

Results flagged for a closer look

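In 132 groups of 6 livers (33 genes in 4 groups), a liver stood far from the other 5 by Dixon's test in 20. Chance alone would give about 6.6 if the genes were independent, which genes of the same liver are not. Of the 20, 14 were Ogg1-/- chow replicate 1, which also lay outside the other 5 livers of its group in 78.4% of the brighter genes. In 13 genes it was the low value, at 8.99 for Pdha1 (next 9.91), 7.02 for Pdhx (7.54), 7.12 for Pdp2 (7.62), 10.64 for Aco1 (11.19), 12.12 for Idh1 (12.76), 7.83 for Idh3a (8.90), 11.47 for Idh3b (12.01), 9.81 for Dlst (10.28), 10.57 for Suclg2 (11.39), 9.16 for Sucla2 (10.09), 11.16 for Sdha (11.89), 9.85 for Fh1 (11.02) and 10.90 for Mdh1 (12.01). In Sdhc it was the high value, at 11.85 (next 11.33).

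The other 6 came from 6 different livers. On the HFD, WT replicate 4 was low in Pdhb (8.50, next 8.91), WT replicate 3 high in Pdk2 (10.96, next 10.73), WT replicate 6 low in Pdp2 (7, next 7.45) and WT replicate 2 low in Slc25a1 (11.18, next 11.85). On chow, WT replicate 5 was low in Suclg2 (11.46, next 11.67) and WT replicate 6 high in Sucla2 (10.55, next 10.40).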

How the results depend on the processing

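The genotype counts on the HFD (10 lower, 5 higher) became 0 and 0 with the axis score as a covariate. Under the other alternatives to the whole fit they ran from 8 to 13 lower and from 4 to 5 higher, but not always for the same genes. Pcx lost its call with the replicate block (10 lower, 4 higher), quantile normalization, only the groups compared, the methods' t-test and both Ogg1-/- replicates numbered 1 left out. Idh3g lost it with median centring, only the groups compared and those replicates left out, and Idh3b with median centring. Sucla2 and Sdha passed with array weights, only the groups compared, the t-test and those replicates left out, and Sdha also with quantile normalization and without dim probe sets. The other counts that moved belonged to diet. For HFD against chow in WT, the single rise became 0 with the replicate block, 0 by the methods' t-test and 2 with the axis score. For HFD against chow in Ogg1-/- livers, the 1 fall became 10 with array weights, 0 with only the groups compared, 0 by the methods' t-test and 12 without both Ogg1-/- replicates numbered 1, while the 5 rises became 3 with only the groups compared and 2 by the methods' t-test. With the axis score these counts were 1 and 6, Pdk2 and Slc25a11 no longer passing (adjusted p = 0.124 and 0.236). The difference between diets gave 1 lower gene without those replicates.

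Leaving out 1 liver at a time, the count on the HFD ran from 6 to 13 lower and from 4 to 6 higher, falling to 6 without WT replicates 1, 4 or 6 or Ogg1-/- replicates 1, 2 or 6. Dld and Pdha1 each lost their calls in 6 of 13 such fits, Pdp1 in 2, Pcx in 7, Idh3b in 10 and Idh3g in 9. On chow it ran from 0 to 1 lower (Aco1 without Ogg1-/- replicate 6, adjusted p = 0.0406) and 0 to 0 higher. In WT the diet count ran from 0 to 1 higher and 0 to 0 lower, in Ogg1-/- livers from 3 to 7 higher (3 without chow replicates 2, 5 or 6) and 1 to 14 lower, and for the difference between diets from 0 to 1 higher and 0 to 2 lower.

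Some signs turned, all of differences that did not pass. On chow, Pdha1 went to 0.08 with array weights, 0.14 with the axis score, 0.09 without Ogg1-/- replicate 1 and 0.09 without both replicates numbered 1; Idh3a to 0.13, 0.22, 0.15 and 0.15 in the same order; Sucla2 to 0.12 with the axis score, 0.02 and 0.02 without those livers; Dld to 0.03 and Fh1 to 0.08 with the axis score. With 1 liver left out, the chow difference ran from -0.16 to 0.09 for Pdha1, from -0.13 to 0.15 for Idh3a and from -0.27 to 0.02 for Sucla2, the upper end in each being without Ogg1-/- replicate 1. On the HFD with the axis score, Sucla2 went to 0.03, Idh1 to 0.02, Pdhx to 0.05, Pdk1 to 0.15, Suclg2 to 0.27 and Slc25a1 to -0.06. The causes were not tested. A slope on transcript length was not run, because transcript lengths were not used here; the methods' t-test and the fit of only the groups compared give no value for the difference between diets.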
